A study of Mus musculus with 16 samples.

Results

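Transcripts of 9 genes that start, restrain and dissolve blood clots were measured in cortex of mice given lipopolysaccharide (LPS) in the morning or in the evening. The genes are F3, Tfpi, Thbd, Procr, Vwf, F13a1, Plat, Plau and Plaur, taken by name for their role in clotting and fibrinolysis at the vessel wall, with earlier results of these data known. They were found by gene symbol, and each matched 1 of the 55487 gene identifiers of the deposited table. After LPS, 8 of the 9 were higher at ZT13, where 19.2% of all genes tested were. At ZT1 5 were higher, where 11.1% were, and none was lower at either time. Procr and Plaur could be tested only through their values in LPS-treated mice. Without them 6 of 7 were higher at ZT13 and 3 of 7 at ZT1. ZT is zeitgeber time, the hours since lights-on. No gene of the 9 differed between the times of day beyond the threshold, in LPS-treated or in PBS-treated mice.

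Clotting begins when blood meets tissue factor, the product of F3, which astrocytes and cells around vessels carry in the brain and which activates factors VII and X and then thrombin. TFPI stops that first step, and thrombomodulin (Thbd) and the endothelial protein C receptor (Procr) on the vessel wall turn thrombin towards activation of protein C, an anticoagulant. Von Willebrand factor (Vwf), made by endothelial cells and megakaryocytes, tethers platelets and carries factor VIII, and the A subunit of factor XIII (F13a1), made by platelets and by tissue macrophages, crosslinks fibrin. Fibrin is removed by plasmin, which tissue plasminogen activator (Plat) and urokinase (Plau) release from plasminogen, the latter bound to its receptor uPAR (Plaur).

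RNA came from cortex of C57Bl6 male mice that were WT and 2 months old. LPS at 2 mg/kg or PBS was given i.p. on consecutive days at ZT1 (the samples titled AM) or at ZT13 (titled PM), and tissue was taken 24 hours after the last injection. The groups were 3 PBS-treated and 5 LPS-treated mice at ZT1 and the same numbers at ZT13, and the question was how the time of day at which LPS is given changes the response. Tissue was thus taken at the same ZT as the injections, and the time of injection and the time of sampling cannot be told apart. The labels number the samples without stating that each is a separate animal, so the p-values measure the spread between these samples.

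Libraries held 20251840 to 29112758 reads on genes, with a median of 22459623. Levels are in CPM, the reads on a gene for each 1000000 on all genes of the sample. Samples were grouped by title, which disagrees with the treatment that GEO's characteristics list for 12 of 16. Gfap, which reactive astrocytes raise, was at 110.5 to 122.8 CPM over the 6 PBS titles and at 572 to 1134 CPM over the 10 LPS titles, and Lcn2, an acute phase gene, was at 0.0421 to 0.197 CPM and at 107 to 418 CPM. As markers of cortical neurons, Rbfox3 was at 217 to 262 CPM and Slc17a7 at 1151 to 1393 CPM over the 16 samples. The share of clotting genes called is read against the share of all 18859 genes tested, and groups are compared with limma on log2(CPM + 0.5), with p-values adjusted over all genes tested and a threshold of 0.05.

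Promoter sequence before the start site is shown first for F3, Procr, Plaur and F13a1, which rose after LPS by different amounts. That of Tfpi, which also rose, was searched but is not printed. RefSeq windows of GRCm38.p6, which span 250 bases before and 50 after a start site, were matched for 5 of the 9 genes, all but Thbd, Plat, Plau and Vwf. Tfpi and F13a1 had 2 windows each, and only the one nearest the start of the gene in GENCODE was searched. Capitals mark every match, on either strand, to AP-1 (TGANTCA), NF-kappaB (GGG and CC with 5 bases of any kind between them), Sp1 (GGGCGG), the E-box (CACGTG) and the TATA box (TATAAA). Where C follows CC, the NF-kappaB letters match on both strands and were counted on each. Each sequence runs 5′ to 3′ and ends before the start of the gene in both RefSeq and GENCODE, which leaves 150 bases for Procr.
F3: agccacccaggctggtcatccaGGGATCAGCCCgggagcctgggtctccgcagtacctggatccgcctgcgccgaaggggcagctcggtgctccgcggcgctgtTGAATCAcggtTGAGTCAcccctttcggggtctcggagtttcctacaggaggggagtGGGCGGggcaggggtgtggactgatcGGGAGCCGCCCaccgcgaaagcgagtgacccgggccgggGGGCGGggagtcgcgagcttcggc
Procr: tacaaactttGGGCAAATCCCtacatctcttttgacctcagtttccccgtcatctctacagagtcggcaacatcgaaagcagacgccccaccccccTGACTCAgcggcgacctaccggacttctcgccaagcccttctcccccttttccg
Plaur: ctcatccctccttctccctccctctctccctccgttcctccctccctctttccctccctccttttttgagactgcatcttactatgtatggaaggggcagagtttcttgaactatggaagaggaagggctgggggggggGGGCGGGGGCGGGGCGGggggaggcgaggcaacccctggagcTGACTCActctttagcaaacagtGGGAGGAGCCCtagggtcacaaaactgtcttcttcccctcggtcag
F13a1: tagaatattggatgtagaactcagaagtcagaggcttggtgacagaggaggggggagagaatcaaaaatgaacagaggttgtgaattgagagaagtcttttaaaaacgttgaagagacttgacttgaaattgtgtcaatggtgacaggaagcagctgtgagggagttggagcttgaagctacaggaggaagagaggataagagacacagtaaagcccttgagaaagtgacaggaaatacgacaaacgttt
They lie at chr3:121723287-121723536 on the plus strand for F3, chr2:155750967-155751116 on the plus strand for Procr, chr7:24462233-24462482 on the plus strand for Plaur and chr13:37050245-37050494 on the minus strand for F13a1.

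AP-1 letters were found in 3 of the 5 windows, with 2 matches in F3 that begin at -146 and -135 from the start site, 1 in Procr at -154 and 1 in Plaur at -69. AP-1 letters occur in 7.8% of the 32817 windows of the same length. NF-kappaB letters were found 4 times in F3 and 3 times each in Procr and Plaur, and occur in 50.8% of windows. Sp1 letters were found 3 times each in F3 and Plaur and once in Tfpi, and occur in 35.6% of windows. The window of Tfpi also held an E-box, at 16 bases after the start, and a TATA box, letters that occur in 7.1% and 13.6% of windows. F3 had a TATA box on the opposite strand after its start site. The window of F13a1 that was searched held none of the motifs. These are matches of letters in a window and describe neither binding nor its absence.

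In PBS-treated mice the clotting genes spanned a wide range of levels. Per kilobase of exon, the mean over the 6 PBS-treated mice was 9.99 CPM for F3, 6.07 for Thbd, 4.403 for Plat, 1.78 for Vwf, 0.876 for Plau, 0.363 for F13a1, 0.340 for Tfpi, 0.182 for Plaur and 0.123 for Procr. Ranges over the 6 mice did not overlap between F3 and Thbd (8.94 to 11.5 against 5.11 to 8.08), between Plat and Vwf (3.64 to 5.34 against 1.59 to 2.21), between Vwf and Plau or between Plau and F13a1. Thbd overlapped with Plat, F13a1 with Tfpi, and Plaur with Procr. Procr and Plaur stood at 3 to 8 and at 7 to 14 reads per PBS-treated mouse and at 23 to 81 and 35 to 111 reads per LPS-treated mouse. All 9 genes passed the filter of 1 CPM in at least 3 samples, but Procr and Plaur passed it through LPS-treated mice alone.

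**Figure D1:**
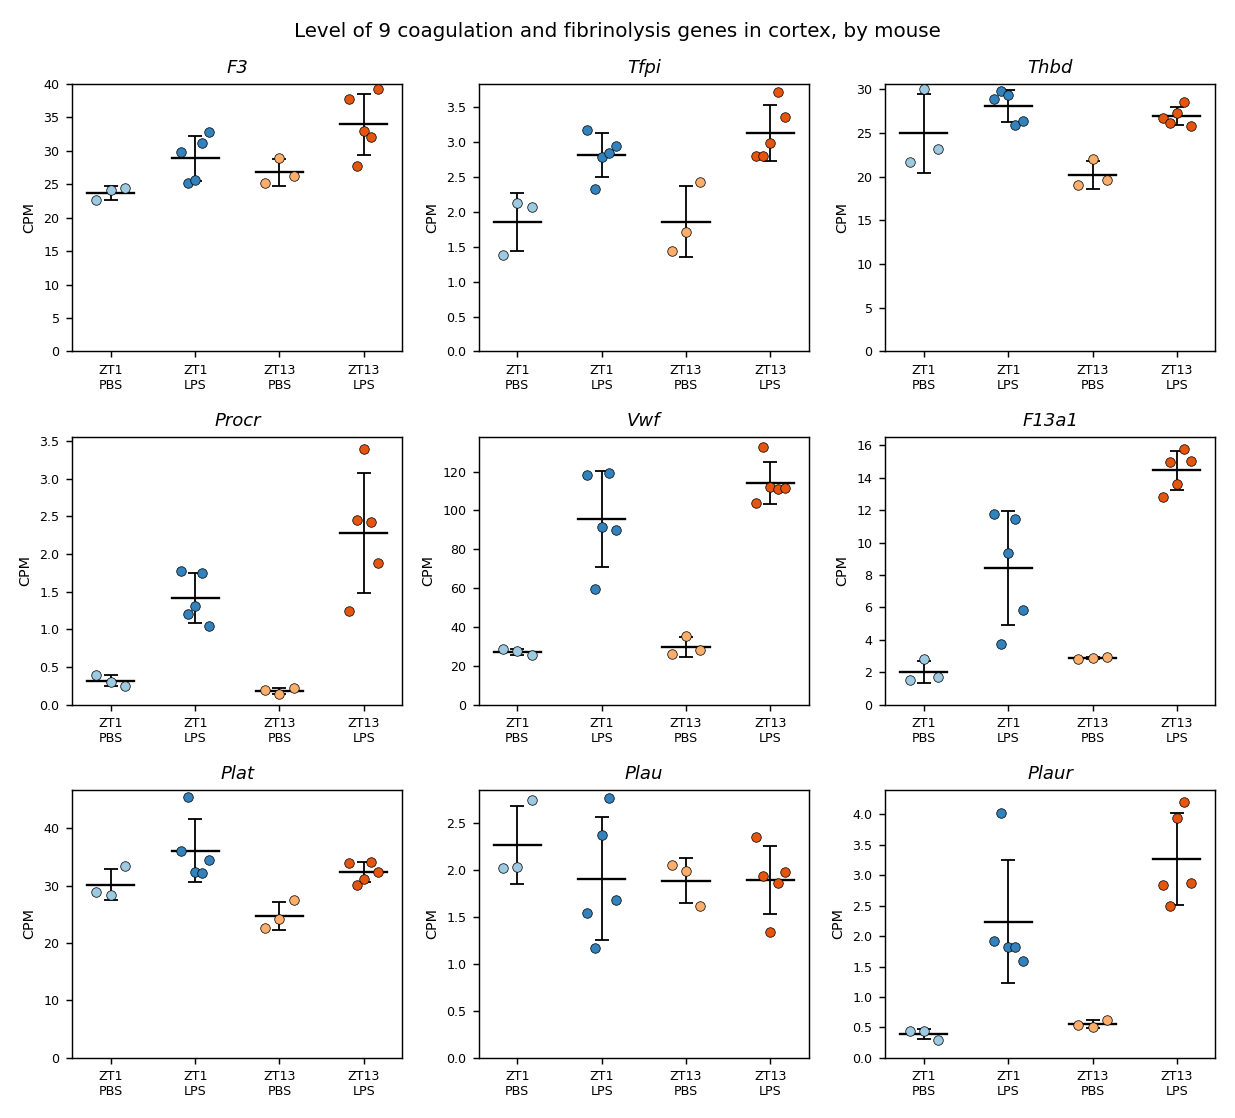
CPM of each of the 9 genes (vertical axes, from 0) in the 4 groups, with 1 point per mouse and the mean ± SD in black (n = 3 for PBS, n = 5 for LPS). Vwf and F13a1 of LPS-treated mice lie above those of PBS-treated mice at both times, Plau does not separate, and F13a1 is the gene whose ZT1 LPS and ZT13 LPS mice do not overlap.

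At ZT1, 5 of the 9 genes were higher in LPS-treated than in PBS-treated mice and 0 were lower, where 16.2% of all genes tested were called, 11.1% higher and 5.15% lower. At ZT13, 8 of 9 were higher and 0 lower, where 28.6% of all genes were called, 19.2% higher and 9.4% lower. Without Procr and Plaur, 3 of 7 were higher at ZT1 and 6 of 7 at ZT13. The median log2 difference over these 7 was 0.27 at ZT1 and 0.41 at ZT13 (0.50 and 0.64 over the 9), beside 0.04 and 0.05 over all genes. The LPS and PBS mice did not overlap for 6 of 9 genes at ZT1, all higher, where 15.9% of all genes lay wholly higher. They did not overlap for 7 of 9 at ZT13, all higher, where 20.9% of all genes lay so. Without Procr and Plaur these were 4 of 7 at ZT1 and 5 of 7 at ZT13. An exact two-sided permutation test of mean CPM cannot go below 0.036 with 3 mice against 5, and after adjustment over all 36 such tests no gene went below 0.092.

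**Figure D2:**
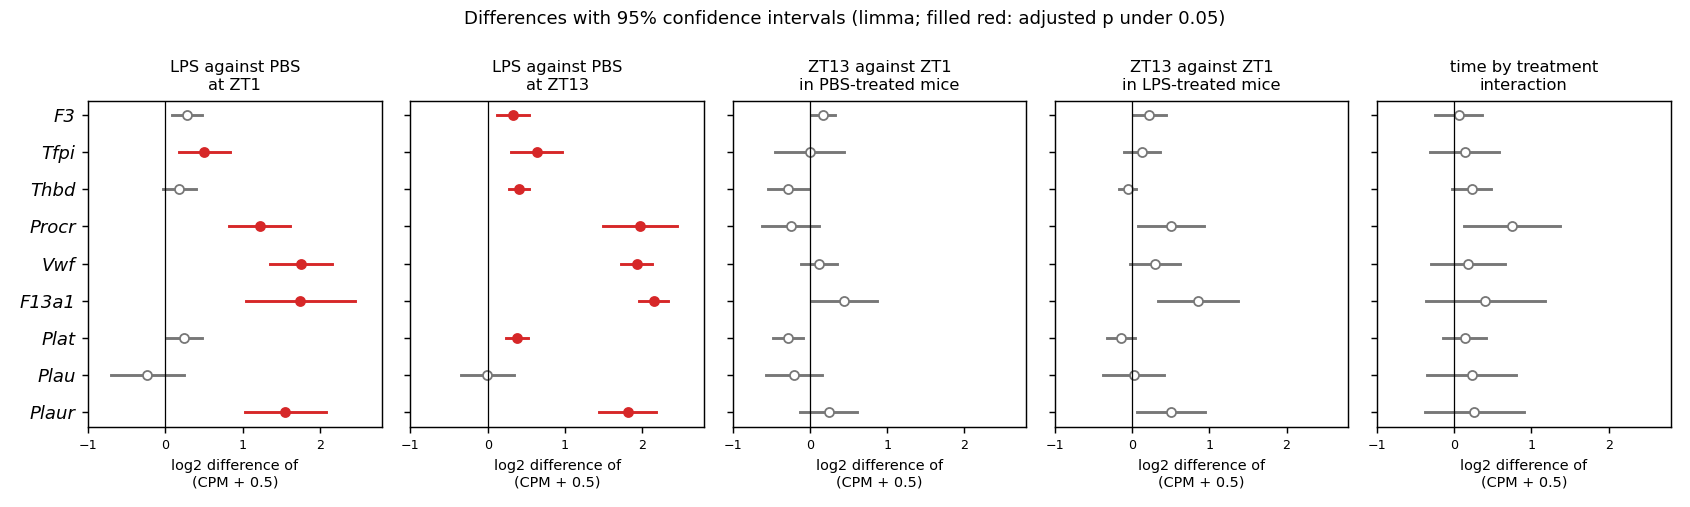
log2 difference of CPM + 0.5 for the 9 genes (horizontal axes) in 5 comparisons, with 95% confidence intervals from limma. Filled red points passed an adjusted p of 0.05. They are the 5 genes at ZT1 and the 8 at ZT13 in the panels of LPS against PBS, and the panels for time of day and for the interaction hold none.

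F3, the initiator, changed little. It was at 22.6, 24.1 and 24.5 CPM in ZT1 PBS mice and at 29.8, 25.2, 25.6, 31.2 and 32.8 CPM in ZT1 LPS mice. It was at 25.2, 29.0 and 26.2 CPM in ZT13 PBS mice and at 37.7, 27.7, 33.0, 32.1 and 39.2 CPM in ZT13 LPS mice. Every ZT1 LPS mouse lay above the ZT1 PBS mice, whereas at ZT13 1 LPS mouse lay below the highest PBS mouse. The log2 difference was 0.27 (SE 0.088, adjusted p = 0.057) at ZT1, which missed the threshold, and 0.33 (SE 0.095, adjusted p = 0.019) at ZT13. F3 at ZT13 lost its call without PBS replicate 1 (0.29, adjusted p = 0.083) or PBS replicate 3 (0.31, adjusted p = 0.068), and at ZT1 it gained one without LPS replicate 2 (0.32, adjusted p = 0.019) or LPS replicate 3 (0.31, adjusted p = 0.041).

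Tfpi, the inhibitor of that first step, rose at both times. It was at 1.38, 2.12 and 2.06 CPM in ZT1 PBS mice, and at 3.17, 2.33, 2.78, 2.84 and 2.95 CPM in ZT1 LPS mice. It was at 1.44, 1.71 and 2.42 CPM in ZT13 PBS mice, and at 2.79, 2.79, 2.98, 3.71 and 3.36 CPM in ZT13 LPS mice. Groups did not overlap at either time. After LPS the log2 difference was 0.50 (SE 0.15, adjusted p = 0.043) at ZT1 and 0.64 (SE 0.15, adjusted p = 0.0068) at ZT13. The ZT1 call was lost when any mouse but LPS replicate 2 was left out, with adjusted p of 0.18, 0.059 and 0.073 without PBS replicates 1, 2 and 3 and of 0.084, 0.077, 0.078 and 0.061 without LPS replicates 1, 3, 4 and 5, and log2 differences between 0.35 and 0.59. The lowest of these was the value without PBS replicate 1.

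Among the receptors of the protein C pathway, Procr rose several fold from a low level at both times, and Thbd rose at ZT13. Procr was at 0.394, 0.296 and 0.253 CPM in ZT1 PBS mice and at 1.77, 1.21, 1.31, 1.75 and 1.04 CPM in ZT1 LPS mice. It was at 0.190, 0.139 and 0.224 CPM in ZT13 PBS mice and at 1.24, 2.45, 3.40, 2.43 and 1.88 CPM in ZT13 LPS mice. Every LPS-treated mouse was above every PBS-treated one. Its log2 difference was 1.22 (SE 0.18, adjusted p = 0.001) at ZT1 and 1.97 (SE 0.22, adjusted p = 1.5e-05) at ZT13. The pseudocount compresses a gene this low, and the ratio of mean CPM was 4.50 at ZT1 and 12.4 at ZT13.

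Thbd was at 21.6, 30.1 and 23.2 CPM in ZT1 PBS mice and at 28.9, 29.9, 29.3, 25.9 and 26.3 CPM in ZT1 LPS mice. It was at 19.0, 22.1 and 19.6 CPM in ZT13 PBS mice and at 26.8, 26.2, 27.3, 28.5 and 25.8 CPM in ZT13 LPS mice. The highest ZT1 value was that of a PBS-treated mouse, whereas at ZT13 the groups lay apart. LPS and PBS mice differed on the log2 scale by 0.18 (95% interval -0.04 to 0.39, adjusted p = 0.25) at ZT1, and 0.32 (adjusted p = 0.031) without that mouse, PBS replicate 2. At ZT13 it was 0.41 (SE 0.062, adjusted p = 2e-04). The ZT13 LPS and ZT1 LPS mice overlapped, at a log2 difference of -0.06 (95% interval -0.17 to 0.06, adjusted p = 0.79).

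Vwf rose at both times, to 3.51 times the mean CPM of PBS-treated mice at ZT1 and 3.83 times at ZT13. It was at 28.4, 27.8 and 25.5 CPM in ZT1 PBS mice and at 118, 59.7, 91.5, 119 and 89.7 CPM in ZT1 LPS mice. It was at 25.9, 35.6 and 27.954 CPM in ZT13 PBS mice and at 104, 133, 112, 111 and 111 CPM in ZT13 LPS mice. The lowest LPS-treated mouse, ZT1 LPS replicate 2, was still above every PBS-treated mouse. Its log2 difference was 1.75 (SE 0.18, adjusted p = 8e-05) at ZT1 and 1.93 (SE 0.092, adjusted p = 3.2e-09) at ZT13. The pattern closest to that of Vwf over the 16 samples was that of C1qc and C1qa, complement genes of microglia, with root mean square differences of 0.136 and 0.165 on the centred log2 scale.

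F13a1 rose at both times. It was at 1.53, 2.81 and 1.73 CPM in ZT1 PBS mice and at 11.8, 3.72, 9.34, 11.4 and 5.85 CPM in ZT1 LPS mice. It was at 2.81, 2.87 and 2.91 CPM in ZT13 PBS mice and at 12.8, 15.0, 13.6, 15.8 and 15.0 CPM in ZT13 LPS mice. The ZT1 LPS mice were spread widely, and the ZT13 LPS mice were close together and all above them. The log2 difference from PBS was 1.75 (SE 0.32, adjusted p = 0.0038) at ZT1 and 2.15 (SE 0.089, adjusted p = 9.5e-10) at ZT13. Of the 6739 exonic bases of F13a1, 74 are shared with the antisense gene Gm30489, which reached at most 0.503 CPM.

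Plat, the gene of tissue plasminogen activator, rose at ZT13. It was at 28.9, 28.3 and 33.3 CPM in ZT1 PBS mice and at 36.1, 45.5, 32.4, 32.1 and 34.4 CPM in ZT1 LPS mice. It was at 22.7, 24.2 and 27.4 CPM in ZT13 PBS mice and at 33.9, 30.2, 31.2, 34.1 and 32.4 CPM in ZT13 LPS mice. The groups overlapped at ZT1 and lay apart at ZT13. LPS and PBS mice differed on the log2 scale by 0.25 (95% interval 0.01 to 0.48, adjusted p = 0.14) at ZT1 and 0.38 (SE 0.067, adjusted p = 0.00063) at ZT13.

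Plau, which encodes urokinase, gave no call in any comparison. It was at 2.02, 2.02 and 2.74 CPM in ZT1 PBS mice and at 1.54, 1.16, 2.37, 2.77 and 1.68 CPM in ZT1 LPS mice. It was at 2.05, 1.99 and 1.61 CPM in ZT13 PBS mice and at 2.35, 1.93, 1.34, 1.86 and 1.97 CPM in ZT13 LPS mice. The groups overlapped at both times. The log2 difference was -0.23 (95% interval -0.70 to 0.24) at ZT1 and -0.01 (95% interval -0.35 to 0.34) at ZT13.

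Plaur, the urokinase receptor, rose at both times. It was at 0.444, 0.444 and 0.295 CPM in ZT1 PBS mice and at 1.91, 4.03, 1.82, 1.82 and 1.59 CPM in ZT1 LPS mice. It was at 0.531, 0.509 and 0.627 CPM in ZT13 PBS mice and at 2.83, 2.49, 3.94, 4.21 and 2.87 CPM in ZT13 LPS mice. All LPS-treated mice were above all PBS-treated mice, and the ZT1 LPS mouse at 4.03 CPM stood well above the others of its group. The log2 difference was 1.55 (SE 0.24, adjusted p = 0.0013) at ZT1 and 1.81 (SE 0.17, adjusted p = 2.5e-06) at ZT13, and the ratios of mean CPM were 5.66 and 5.88.

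ZT1 LPS replicate 2 was the lowest of its group for 5 genes (F3, Tfpi, Vwf, F13a1 and Plau) and the highest for 3 (Thbd, Plat and Plaur). It had the lowest sums of endothelial markers (216 CPM), microglial markers (216 CPM) and border macrophage and monocyte markers (8.997 CPM) of the 5 ZT1 LPS mice, and the highest sum of erythrocyte markers (35.8 CPM, where the others had 6.16 to 23.9 CPM). Its part in these results was not tested beyond leaving it out. Without it the log2 difference at ZT1 was 1.91 (adjusted p = 7.7e-07) for Vwf, 1.99 (adjusted p = 0.00019) for F13a1, 1.36 (adjusted p = 0.00021) for Plaur and 0.16 (adjusted p = 0.14) for Plat, and 6 of the 9 genes were called, F3 being the addition.

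Between the LPS groups, 0 of 9 genes were called, where 0.0212% of all genes were. F13a1 came closest, at a log2 difference of 0.85 higher at ZT13 (SE 0.24, adjusted p = 0.20), and its groups, 3.72 to 11.8 CPM against 12.8 to 15.8 CPM, did not overlap (exact two-sided permutation p = 0.0079, the smallest 5 mice against 5 allow, and 0.092 adjusted over the 36 tests). It was the only one of the 9 without overlap in this comparison, where 1.96% of all genes had none. Without ZT1 LPS replicate 2 the difference of F13a1 was 0.61 (adjusted p = 0.18). At an unadjusted p under 0.05, 4 of 9 genes were higher at ZT13 (F3, Procr, Plaur and F13a1) and 0 lower, where 7.67% of all genes were higher and 2.92% lower. Procr and Plaur passed the filter through LPS-treated mice alone, and without them only F3 and F13a1 remain. Procr differed by 0.50 (95% interval 0.08 to 0.93, adjusted p = 0.37), Plaur by 0.50 (95% interval 0.06 to 0.94, adjusted p = 0.39) and F3 by 0.22 (95% interval 0.02 to 0.43, adjusted p = 0.42). Vwf differed by 0.29 (95% interval -0.03 to 0.61), and by 0.13 without ZT1 LPS replicate 2. For Plat, Tfpi and Plau the difference was -0.15 (95% interval -0.32 to 0.03), 0.13 (95% interval -0.11 to 0.37) and 0.02 (95% interval -0.37 to 0.41).

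Between the PBS groups, 0 of 9 genes were called, where 0.52% of all genes were. Plat was lower at ZT13 by a log2 difference of -0.28 (95% interval -0.47 to -0.09, adjusted p = 0.21) and Thbd by -0.29 (95% interval -0.54 to -0.03, adjusted p = 0.32). F3 was at 0.17 (95% interval 0.02 to 0.32, adjusted p = 0.32) and F13a1 at 0.45 (95% interval 0.02 to 0.87, adjusted p = 0.35), both higher at ZT13. These 4 of 9 had an unadjusted p under 0.05, where 13.5% of all genes did. Groups did not overlap for F3 and Plaur, higher at ZT13, and Procr and Plat, lower, which is 4 of 9, or 2 of 7 without Procr and Plaur, where 18.7% of all genes had no overlap. The exact test cannot go below 0.10 with 3 mice against 3.

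The TOD × treatment interaction, which asks whether the LPS difference at ZT13 exceeds that at ZT1, called 0 of 9 genes, where 0.159% of all genes were called. The estimate was above 0 for all 9, with a median of 0.23 (0.18 without Procr and Plaur) beside 0.01 over all genes, of which 54% had an estimate above 0. It was 0.75 (95% interval 0.13 to 1.37, adjusted p = 0.41) for Procr, the only one with an unadjusted p under 0.05, where 9.25% of all genes had one. Procr passed the filter through LPS-treated mice alone and stood at 3 to 8 reads in PBS-treated mice. The estimate was 0.40 (95% interval -0.36 to 1.17) for F13a1, 0.26 (95% interval -0.38 to 0.90) for Plaur, 0.23 (95% interval -0.02 to 0.48) for Thbd and 0.18 (95% interval -0.30 to 0.65) for Vwf. The calls of 8 genes at ZT13 and 5 at ZT1 are therefore not shown to differ between the times.

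Markers of endothelial cells moved with these genes. The summed CPM of 10 endothelial markers was 184 to 190 in ZT1 PBS, 216 to 303 in ZT1 LPS, 133 to 159 in ZT13 PBS and 299 to 331 in ZT13 LPS mice. At ZT1, 8 of the 10 were higher after LPS and 1, Flt1, was lower, where 11.1% and 5.15% of all genes were. At ZT13 9 were higher, where 19.2% of all genes were, with the largest log2 difference for Cldn5 (2.24) and Pecam1 (2.23). In the interaction 5 of the 10 were called higher, where 0.122% of all genes were. Between PBS groups 2 of the 10, Cldn5 and Flt1, were lower at ZT13, where 0.217% of all genes were. Per 100 CPM of these markers, Vwf stood at 13.9 to 15.0 CPM in ZT1 PBS and 27.7 to 39.7 CPM in ZT1 LPS mice, and at 17.5 to 25.2 and 34.8 to 40.0 CPM at ZT13. Procr stood at 0.137 to 0.208 and 0.419 to 0.594 CPM at ZT1, and at 0.0985 to 0.143 and 0.415 to 1.08 CPM at ZT13. Both were thus higher after LPS relative to the summed markers. At ZT13 Cldn5 and Pecam1 rose more than Vwf (log2 difference 1.93) and the other markers less. The direction for Vwf at ZT13 therefore depends on the markers taken. Thbd, per 100 CPM of the sum, went from 11.4 to 15.97 CPM in ZT1 PBS to 8.55 to 13.8 CPM in ZT1 LPS mice. At ZT13 it went from 12.3 to 15.7 to 7.91 to 9.30 CPM. Per 100 CPM of markers, Plat stood at 15.0 to 18.1 CPM in ZT1 PBS and 10.6 to 21.1 in ZT1 LPS mice, which overlapped, and went from 17.1 to 17.2 to 9.11 to 11.4 CPM at ZT13. Tfpi overlapped at both times, at 0.727 to 1.13 and 0.935 to 1.19 CPM at ZT1 and at 1.08 to 1.52 and 0.844 to 1.21 CPM at ZT13. In bulk cortex, more cells of a type and more RNA in each cell cannot be told apart.

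**Figure D3:**
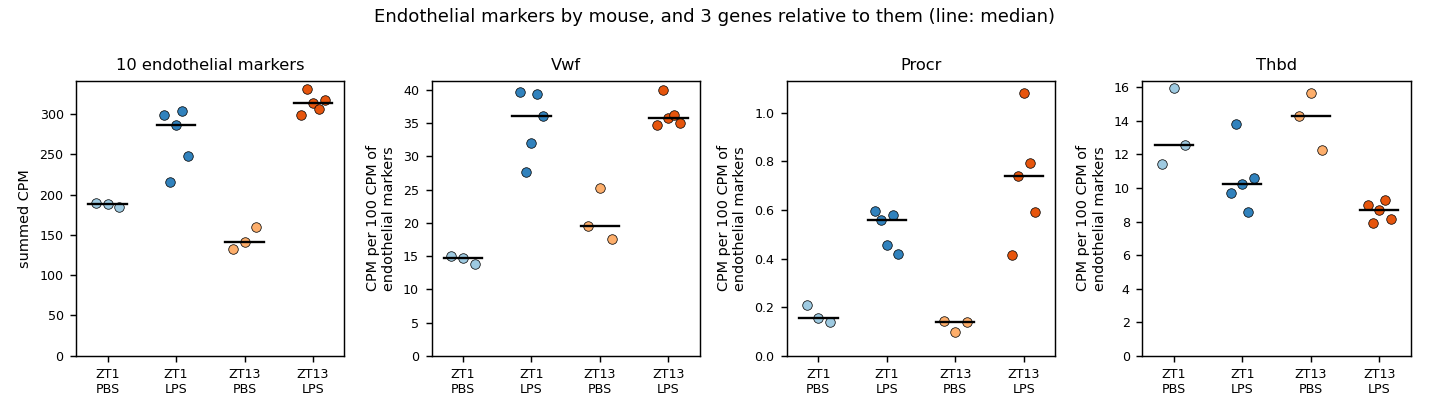
Summed CPM of 10 endothelial markers by mouse (left) and CPM of Vwf, Procr and Thbd for every 100 CPM of those markers, with 1 point per mouse and a line at the median of each group. Vwf and Procr are higher after LPS on this scale at both times, and Thbd is lower after LPS at ZT13.

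Markers of some of the other cells that carry these transcripts are given beside F13a1 and Plaur. Those of astrocytes and mural cells (pericytes and smooth muscle) are not set beside F3 here. For F13a1, 7 border macrophage and monocyte markers summed to 6.28 to 8.15 CPM in ZT1 PBS, 8.997 to 15.1 in ZT1 LPS, 7.14 to 7.73 in ZT13 PBS and 13.1 to 19.4 in ZT13 LPS mice. Of the 6 that could be tested, 4 were higher at each time, Cd163, Ccr2, Ly6c2 and Plac8, where 11.1% and 19.2% of all genes were. Ccr2, Ly6c2, Plac8 and Lyve1 passed the filter through LPS-treated mice alone, so their being tested depended on their values after LPS. Mrc1 differed by -0.06 at ZT1 and 0.15 at ZT13. For every 100 CPM of these markers, F13a1 stood at 19.3 to 34.5 CPM in ZT1 PBS and 41.3 to 81.8 in ZT1 LPS mice, and at 37.1 to 39.3 and 70.3 to 115 at ZT13. Platelet and megakaryocyte markers, 7 in all, summed to 4.43 to 5.40 CPM in ZT1 PBS, 3.70 to 5.11 in ZT1 LPS, 3.92 to 4.303 in ZT13 PBS and 4.37 to 6.08 in ZT13 LPS mice. Of the 2 that could be tested, Itga2b was higher at ZT13 by 0.52 (adjusted p = 0.02) and not called at ZT1. Gp1ba differed by -0.25 at ZT1 and 0.22 at ZT13 and was not called. Mean Gp1bb went from 0.856 CPM in PBS to 0.449 CPM in LPS mice at ZT1, and from 0.834 to 0.482 CPM at ZT13. Mean Gp9 fell likewise, from 0.270 to 0.129 and from 0.269 to 0.0920 CPM, whereas Pf4 fell at ZT1 and rose at ZT13. Ppbp was at 0 in all 6 PBS-treated mice and at most 0.187 CPM in LPS-treated mice. For Plaur, 6 neutrophil markers summed to 0.342 to 0.838 CPM in PBS-treated mice, 8.52 to 42.7 in ZT1 LPS and 27.9 to 74.4 in ZT13 LPS mice. Most of the sum was S100a8 and S100a9, with means of 13.2 and 33.4 CPM of 53.6 CPM in ZT13 LPS mice. Camp and Ly6g stayed at or under 0.224 CPM in every mouse. The part of these cells in the differences was not tested.

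The other genes of the cascade were counted from a list of 37, of which 17 were expressed highly enough to test. At ZT1, 3 were higher after LPS and 1 lower, where 16.2% of all genes were called, and at ZT13 6 were higher and 0 lower, where 28.6% were. Without F10, which passed the filter through LPS-treated mice alone, 5 of 16 were higher at ZT13. The median log2 difference over the 17 was 0.21 at ZT1 and 0.16 at ZT13. The other 20 were mostly genes of liver plasma proteins, among them Fgb and Plg. Fgb, a fibrinogen chain, was at or under 3 reads in every mouse. Plg, the substrate of Plat and Plau, was at most at 0.215 CPM.

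Anxa2, which encodes an endothelial receptor of Plat and plasminogen, and S100a10, its partner, differed in size. Anxa2 had a mean of 6.12 CPM in ZT1 PBS, 21.4 in ZT1 LPS, 5.10 in ZT13 PBS and 32.4 in ZT13 LPS mice, with log2 differences of 1.71 (adjusted p = 2.6e-05) and 2.56 (adjusted p = 8e-10) after LPS. Its difference between LPS groups was 0.61 (adjusted p = 0.088) and its interaction 0.85 (adjusted p = 0.12). These became 0.71 (adjusted p = 0.01) and 0.95 (adjusted p = 0.021) without ZT1 LPS replicate 1. That was the only call among the 10 fits with a mouse left out between LPS groups and the 16 for the interaction. The highest limma adjusted p of these fits was 0.26 and 0.34. S100a10 was higher at ZT13 by 0.64 (adjusted p = 6e-04) and differed by 0.27 (adjusted p = 0.13) at ZT1. Lrp1, a clearance receptor, was higher at ZT13 by 0.17 (adjusted p = 0.0019), and Serpini1, a neuronal inhibitor of Plat, at ZT1 by 0.17 (adjusted p = 0.011). Serpini1 missed the threshold without ZT1 PBS replicate 1 (adjusted p = 0.054).

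Pros1, the cofactor of activated protein C, had a mean of 6.35 CPM in ZT1 PBS, 17.2 in ZT1 LPS, 6.54 in ZT13 PBS and 20.8 in ZT13 LPS mice. Its log2 difference was 1.39 (adjusted p = 0.00014) at ZT1 and 1.595 (adjusted p = 1.1e-08) at ZT13. F10, the zymogen that tissue factor activates, was at or under 3 reads in all 6 PBS-treated mice and was called at ZT13, where its mean of 1.24 CPM was at least 8.9-fold higher than the CPM of 3 reads in a PBS-treated mouse. F2r, the main thrombin receptor, was higher at ZT13 by 0.53 (adjusted p = 0.0041). F2rl3, another thrombin receptor, fell by 0.54 on the log2 scale at ZT1 (adjusted p = 0.042), and its call was lost without any of PBS replicates 1 to 3 or LPS replicates 1 to 4, at adjusted p between 0.058 and 0.17.

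**Figure D4:**
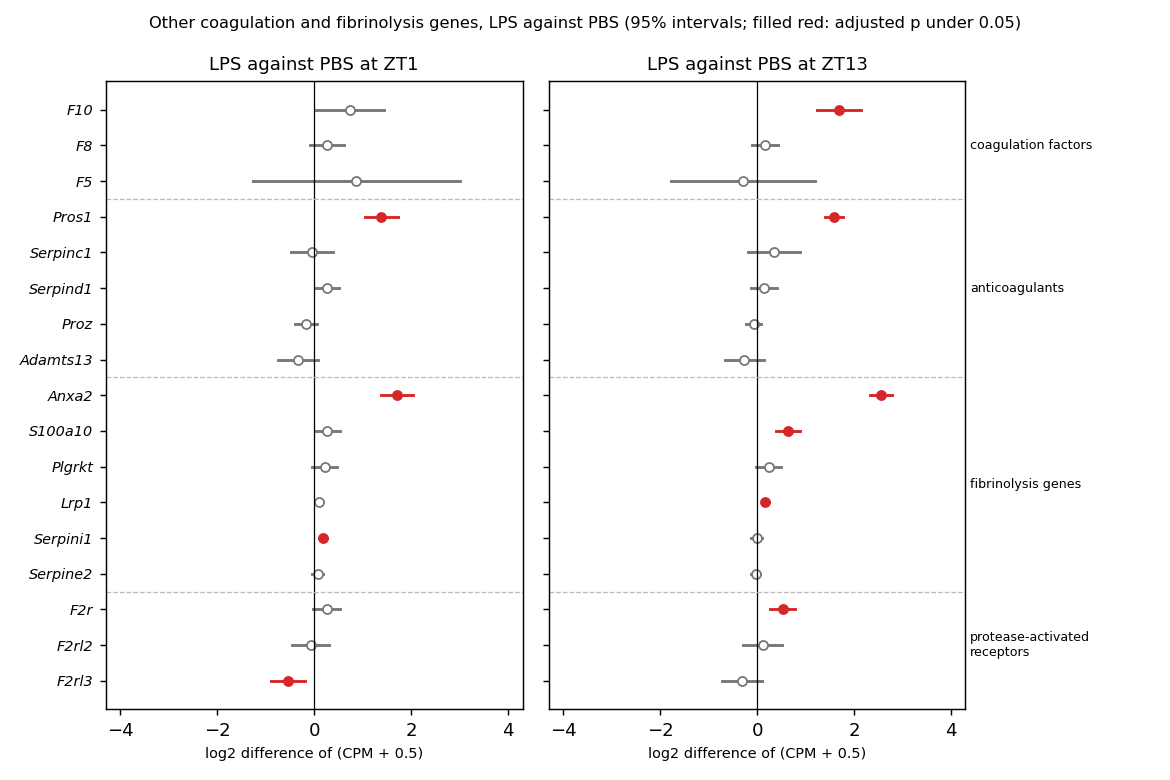
log2 difference of CPM + 0.5 after LPS (horizontal axes) for 17 other genes of coagulation and fibrinolysis at ZT1 (left) and ZT13 (right), grouped by role, with 95% confidence intervals from limma. Filled red points passed an adjusted p of 0.05, and Anxa2 lies farthest to the right at both times. F10 was at or under 3 reads in PBS-treated mice, and its plotted value depends on the pseudocount.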

How the data were processed

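The authors deposited 1 table of CPM, reads on each gene per 1000000 reads on all genes of a sample, with a column for each of 16 cortex RNA-Seq libraries made after ribosomal RNA depletion. Per the labels, the processing notes name bcl2fastq, DRAGEN 4.0.3-8 and GRCm38. The counting tool and strand setting are not given in the sources used here. Repeated lines (287 of 55774) were removed. CPM of 1 read was read from the step between low values. Only 81.8% to 83.5% of low values were whole multiples (tolerance 0.02 reads), so counts were not recovered and no count test was run. Depth was 20251840 to 29112758 reads. Exon lengths, coordinates and overlaps came from GENCODE M21 (GRCm38), which holds 55227 of the identifiers, and promoters from RefSeq.

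Genes were tested (18859) where 3 or more of the 16 samples reached 1 CPM, on log2(CPM + 0.5), with limma 3.58.1 in R 4.3.3 (intensity trend, Benjamini-Hochberg adjustment, threshold 0.05). A fold change on this scale understates that of low genes. Pairwise comparisons used their 2 groups and the interaction all 16 samples. Samples were grouped by title. All 9 members were also compared by exact permutation tests of mean CPM (36 tests), and their 95% intervals are those of limma. Other genes of the cascade were named when called, or from a short fixed list (Plg, Serpini1, F2r, Pros1, Fgb, Anxa2), with F5 and Ttr singled out after their values were seen, and the 2 genes nearest in pattern were found for each member called. One gene of the lists is not reported here. The members and lists were chosen with earlier results of these data known. Alternatives were pseudocounts of 0.1 and 1, filters, scaling, a single fit, quality weights, no trend, a replicate block, treatment by GEO's characteristics, and each mouse left out. The fits were tested on simulated data. Tables used pandas 2.3.3 and numpy 2.4.6 in Python 3.11.15, and plots matplotlib 3.10.9. Limits from 3 reads cover counting error only.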

Additional observations from a re-analysis of the deposited data

Results flagged for a closer look

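Plaur in ZT1 LPS replicate 2 was at 4.03 CPM, far from the 1.59 to 1.91 CPM of the other 4 mice of its group, a gap of 0.866 of the group's range. It was the only such value among the 18 sets of 5 mice examined (9 genes in each LPS group), and chance gives about 1 in 20 such sets. The same mouse was the lowest or highest of its group for 8 of the 9 genes, and the values without it stand beside the results above.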

How the results depend on the processing

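The count of the 9 genes called was 5 at ZT1 and 8 at ZT13, all higher, and under every alternative run that kept the titled groups no call was lower after LPS. Without a filter 3 were called at ZT1 (Tfpi and F13a1 at adjusted p of 0.11 and 0.064). With a filter of 5 CPM, which tests 5 of the 9, the counts were 3 and 5. With treatment from the treatment field they were 0 and 0, as were those over all genes. With quantile normalization they were 4 and 6, and with quality weights 6 and 8. Over the alternatives that kept all mice, F3 was called at ZT13 in 6 of 10 (highest limma adjusted p = 0.15). Tfpi was called at ZT1 in 5 of 9 (highest adjusted p = 0.17). Leaving out each mouse gave 4 to 6 at ZT1 and 7 to 8 at ZT13. The 0 calls for the time of day in LPS-treated mice, in PBS-treated mice and for the interaction were 0 under every alternative run, also with each mouse left out, and with only the LPS-treated mice whose treatment field reads LPS (2 against 2). Among differences that were never called, the sign turned for Plau between LPS groups under quantile normalization (-0.0281) and quality weights (-0.15) and for Tfpi between PBS groups under quantile normalization (0.0181). Leaving out mice turned it for Plau between LPS groups (-0.10 to 0.14) and at ZT13 (-0.0898 to 0.0853), for Tfpi between PBS groups (-0.17 to 0.13) and for Vwf between PBS groups (-0.0162 to 0.21). The cause was not tested. Serpini1 at ZT1 missed the threshold with median-of-ratios factors (adjusted p = 0.068) and without the intensity trend (adjusted p = 0.058), and F2r at ZT13 did so with quantile normalization (adjusted p = 0.05). F2rl3 at ZT1 was called in 7 of 9 alternatives that kept all mice. Anxa2, not called in the main fits, was called between LPS groups in 2 of 10 of these and for the interaction in 1 of 9.

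The main fits did not pair mice by replicate number. Residuals of same-numbered samples correlated at -0.20 to 0.33, which cannot show whether the numbers pair mice. With the replicate number as a block, 4 of the 9 genes were called at ZT1 (Tfpi at adjusted p = 0.17), 7 at ZT13 (F3 at adjusted p = 0.055) and 0 in the other comparisons, and Serpini1 missed the threshold at ZT1 (adjusted p = 0.085). Procr and Plaur rest on 3 to 14 reads in each PBS-treated mouse, which limits the precision of their folds.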

Other observations

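F5, the cofactor of factor Xa, varied between mice of every group, from 0.806 to 21.3 CPM, and gave no call. It was at 3.47 to 21.3 CPM in the 10 mice with more than 100 CPM of Ttr, a transcript of choroid plexus, which had 135 to 875 CPM of it, and at 0.806 to 2.55 CPM in the 6 mice with 4.57 to 20.499 CPM. Both F5 and Ttr were chosen after their values were seen, and a share of choroid plexus in the dissections was not tested.

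The genes closest in pattern to Procr over the 16 samples were Gimap4 and Col4a1, with root mean square differences of 0.204 and 0.213 on the centred log2 scale, where Procr itself varied by 0.842. Map3k6 and Mlkl were closest to Plaur (0.236 and 0.261) and Xdh and B430306N03Rik to F13a1 (0.235 and 0.245). The measure takes in the difference between LPS and PBS mice.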
